A study of Mus musculus with 24 samples.

Results

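A set of 9 genes of the skeletal muscle programme were followed in RNA of the mouse choroid: the myogenic transcription factors Myod1, Myog, Myf5 and Myf6, the satellite cell factor Pax7, the fusion genes Mymk and Mymx, and the developmental myosin heavy chains Myh3 and Myh8. They are 9 of the 56065 genes in the deposited table, matched by symbol to Ensembl gene identifiers, and the group was chosen by the values of Myod1 and Myog, which were lower in Ceacam1-/- than in wild type mice after laser treatment. That contrast is therefore given below as a description, with no test.

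RNA was sequenced in 24 libraries, which fall into 4 groups: wild type without laser (n = 4), Ceacam1-/- without laser (n = 4), wild type with laser (n = 9) and Ceacam1-/- with laser (n = 7). Ceacam1-/- mice lack exons 1 and 2 of Ceacam1, an adhesion molecule of the immunoglobulin superfamily, in every cell, and controls were wild type littermates on the C57BL/6J background, of both sexes and aged 6 to 8 weeks unless stated otherwise by the study. Laser mice received 6 burns per eye (150 mW, 200 µm, 100 ms) with a frequency-doubled Nd:YAG laser under ketamine and xylazine to bring on choroidal neovascularization. The time between laser and dissection, and the sex and number of mice behind a library, are not in the labels, so the spread between libraries may be partly technical. Values are normalized counts, meaning reads per gene scaled so that libraries can be compared, and they summed to between 23704346 and 35094410 per library.

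Skeletal muscle is built and repaired in steps. Pax7 marks the resident stem cells (satellite cells). Myf5 and Myod1 commit a cell to the muscle lineage, Myog starts terminal differentiation, and Myf6 (MRF4) is the factor of this family that persists in mature fibres. Mymk (myomaker) and Mymx (myomixer) are membrane proteins that fuse myoblasts into fibres and are silent in resting adult muscle. Myh3 and Myh8 encode the embryonic and perinatal myosin heavy chains, which most limb muscles lose after birth but the extraocular muscles retain.

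On GRCm39, the genes lie at chr7:46025870-46028526 (Myod1, plus strand), chr1:134217707-134220287 (Myog, plus), chr10:107318769-107321995 (Myf5, minus), chr10:107328712-107330656 (Myf6, minus), chr4:139464373-139560839 (Pax7, minus), chr2:26951627-26962228 (Mymk, minus), chr17:45911239-45913028 (Mymx, minus), chr11:66969126-66993117 (Myh3, plus) and chr11:67167746-67199462 (Myh8, plus). Myf5 and Myf6 are neighbours on chromosome 10, and both myosins lie in a myosin cluster on chromosome 11. Annotated genes on the opposite strand overlap Myog (Gm32221), Myh8 (Gm72458), Mymk (Adamtsl2) and Mymx (Gm56882). A microRNA on the same strand, Mir6923, overlaps Myh3. No strand setting of the counting is given in the sources used here, so reads of such pairs may not have been told apart.

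The promoters of Myog and Mymk, whose medians were higher with laser in wild type, are shown with that of Myh3, whose median was not. Each is the 250 bases before the outermost annotated start, read 5′ to 3′ on the strand of the gene, and capitals mark each E-box (CANNTG), the short motif bound by MYOD1 and myogenin.
Myog: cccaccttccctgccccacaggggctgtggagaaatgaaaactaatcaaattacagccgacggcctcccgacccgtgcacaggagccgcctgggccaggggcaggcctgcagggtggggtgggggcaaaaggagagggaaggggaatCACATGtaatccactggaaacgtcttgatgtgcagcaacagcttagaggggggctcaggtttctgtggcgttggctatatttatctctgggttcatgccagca
Mymk: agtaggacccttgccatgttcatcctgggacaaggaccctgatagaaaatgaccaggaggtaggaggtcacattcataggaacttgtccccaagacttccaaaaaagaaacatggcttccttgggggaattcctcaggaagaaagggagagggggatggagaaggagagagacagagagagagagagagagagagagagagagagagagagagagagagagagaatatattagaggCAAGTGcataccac
Myh3: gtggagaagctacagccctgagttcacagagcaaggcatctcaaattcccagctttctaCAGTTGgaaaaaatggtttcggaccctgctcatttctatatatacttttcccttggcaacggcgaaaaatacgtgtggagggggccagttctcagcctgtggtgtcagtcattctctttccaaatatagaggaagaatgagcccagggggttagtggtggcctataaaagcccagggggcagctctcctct
These windows are chr1:134217457-134217706 (Myog), chr2:26962229-26962478 (Mymk) and chr11:66968876-66969125 (Myh3). The windows of Myog, Mymk and Myh3 held 1 E-box each, at 103, 14 and 191 bases before the start. CANNTG reads the same on both strands and was present in 66.5% of the 21770 protein-coding promoters of the same length, and CAGCTG, a subset of it, in 12.03%. Among the other genes, Myod1 had 2 E-boxes, Pax7 and Myh8 had 1 each, and Myf5 and Myf6 had none in this window. A match describes the letters of the window and was not tested as a binding site.

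The libraries held skeletal muscle RNA, which varied widely between them. In its methods, the study uses the word choroid for the complex of retinal pigment epithelium, choroid and sclera. The mean log2 of 20 adult sarcomere genes, among them Acta1 (skeletal actin), Ckm (muscle creatine kinase) and Ttn (titin), was 14.7 ± 0.46 (SD, n = 4) for wild type without laser and 14.5 ± 1.85 (SD, n = 4) in Ceacam1-/- without laser. With laser, wild type libraries had 13.7 ± 0.72 (SD, n = 9). Ceacam1-/- libraries had 12.4 ± 1.30 (SD, n = 7). None of the 20 genes was at 0 throughout a group. Their summed counts ran from 610508 to 1183940 in wild type without laser, from 105196 to 2124750 in Ceacam1-/- without laser, from 143675 to 697372 in wild type with laser and from 28718 to 403355 in Ceacam1-/- with laser. Atp2a1, the calcium pump of fast fibres, was the most abundant of them in 3 groups and Acta1 in Ceacam1-/- with laser. In bulk tissue, fewer muscle cells and less muscle RNA per cell cannot be told apart.

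Some libraries stood apart. Library 23 (Ceacam1-/- without laser) had the lowest summed sarcomere counts of the 8 libraries without laser and library 14 (Ceacam1-/- with laser) the lowest of all 24. Libraries 14, 15 and 18 (Ceacam1-/- with laser) were low in 6 markers of the retinal pigment epithelium (RPE), with summed counts of 63238, 49391 and 36815 against at least 159008 in every other library. Their summed counts of 5 photoreceptor markers were 518161, 294280 and 523187, against at most 105604 in the other laser libraries. Without laser, these markers reached 302753 in library 23 and 280518 in library 21. Library 23 also had the highest summed counts of Schwann cell markers, 563279 against at most 120219 in the others. The study screened its libraries for outliers and removed what it found. Which library that was is not given in the sources used here. All 24 libraries of the table, library 23 included, were kept. Without laser, these comprise 4 wild type and 4 Ceacam1-/- libraries. The group sizes are the same as those that the study reports after its removal. By group size, library 23 was therefore not the one removed.

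The targeted gene was lower in libraries labelled Ceacam1-/-, with overlap. Without laser, Ceacam1 was at 958, 5027, 1242 and 4596 in wild type and at 405, 505, 508 and 1171 in Ceacam1-/-. With laser it ranged from 774 to 8367 (median 996) in wild type and from 67.8 to 905 (median 335) in Ceacam1-/-. These values count all exons of the gene, of which only exons 1 and 2 are deleted.

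Without laser, the choroid already held a muscle-type profile in which the embryonic myosin led. Levels between genes are compared as normalized counts per kilobase (kb) of exon. In wild type the order of the medians was Myh3 (2721 per kb), Myf6 (1690), Myod1 (233), Myog (231), Myh8 (107), Myf5 (58.5), Mymk (56.8), Pax7 (4.38) and Mymx (0.773). In that order, the ranges of Myf6 and Myod1 and those of Mymk and Pax7 did not overlap, while all other neighbours overlapped. In Ceacam1-/- without laser the order was Myh3 (2952 per kb), Myf6 (1575), Myog (214), Myod1 (211), Myh8 (88.0), Mymk (50.04), Myf5 (43.6), Pax7 (5.60) and Mymx (0), and every pair of neighbours overlapped.

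With laser, Myog moved to the top in wild type. Its median there was 1187 per kb, followed by Myf6 (718), Mymk (578), Myh3 (504), Myod1 (224), Mymx (116), Myf5 (58.5), Myh8 (30.9) and Pax7 (4.71). In Ceacam1-/- with laser the order was Myf6 (239 per kb), Myog (239), Myh3 (136), Mymk (128), Myod1 (48.5), Mymx (23.2), Myh8 (13.9), Myf5 (13.6) and Pax7 (1.25). Among neighbours with laser, the ranges did not overlap for Myh8 and Pax7 in wild type and for Myf5 and Pax7 in Ceacam1-/-, and overlapped for all others.

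**Figure D1:**
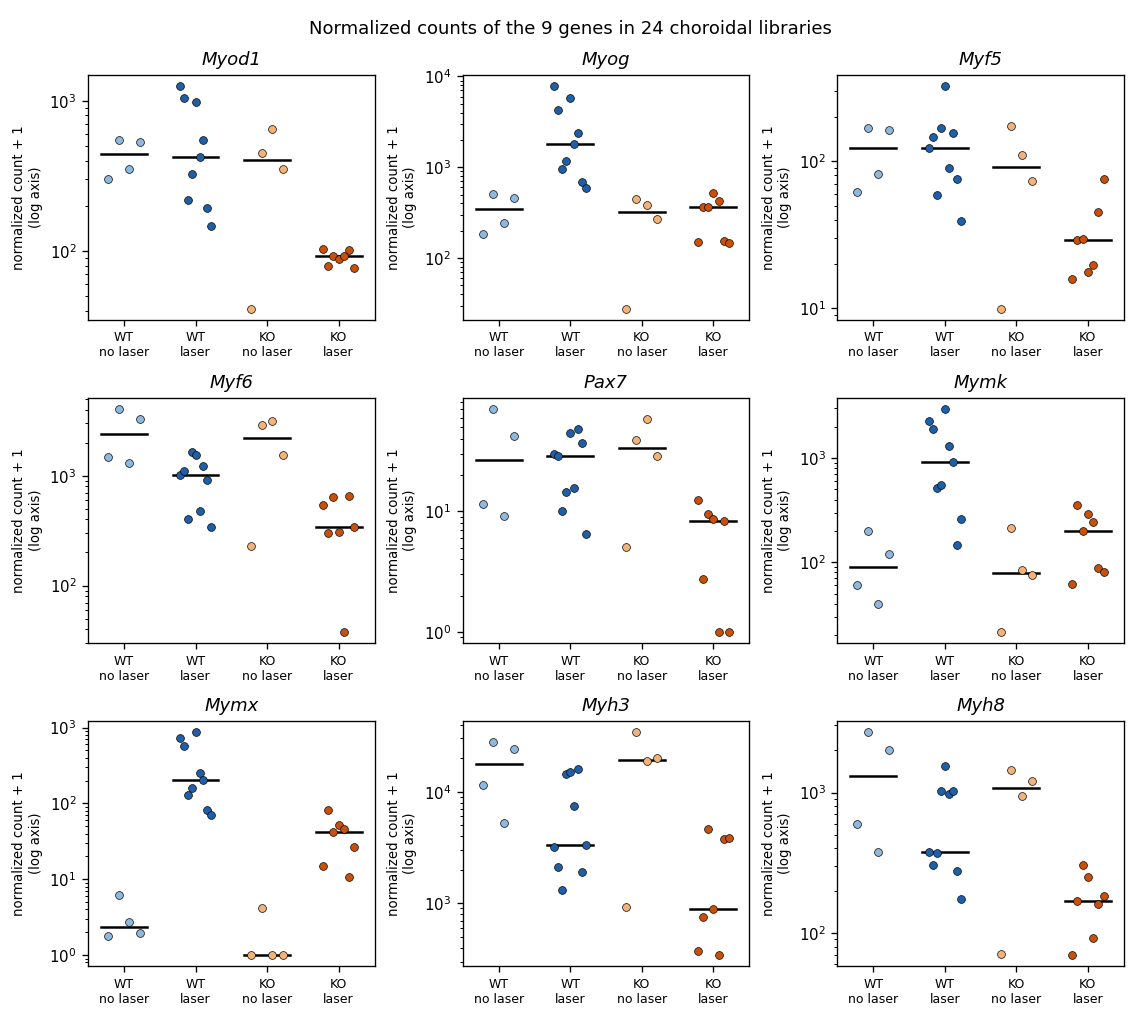
Normalized counts plus 1 (log axis) of the 9 genes in each of the 24 libraries, by genotype (WT, wild type; KO, Ceacam1-/-) and laser. Points are libraries and bars are medians. Mymx lay at or below 5.15 in all 8 libraries without laser and at or above 9.72 in all 16 with laser, while Myh3 and Myf6 had lower medians with laser than without in both genotypes.

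The first question was whether loss of Ceacam1 changed these genes in the untreated choroid, in libraries that played no part in their choice. No difference was detected in the normalized counts. Myod1 was at 300, 549, 352 and 528 in wild type and at 40.4, 451, 651 and 348 in Ceacam1-/-. Myog was at 183, 510, 242 and 459 in wild type and at 26.8, 446, 380 and 269 in Ceacam1-/-. For both genes the groups overlapped, and library 23 held the lowest value of all. Myf6 was at 1491, 4047, 1299 and 3291 in wild type and at 227, 2903, 3161 and 1554 in Ceacam1-/-, again lowest in library 23. Myh3 showed the same low library, with 11488, 27746, 5200 and 24215 in wild type and 918, 34059, 18784 and 19948 in Ceacam1-/-.

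The difference of Ceacam1-/- from wild type without laser was -0.71 log2 for Myod1 (SE 0.78), -0.76 for Myog (SE 0.84), -0.83 for Myf5, -0.75 for Myf6, 0.02 for Pax7, -0.44 for Myh3, -0.85 for Myh8 and -0.25 for Mymk. Of the 8 genes that passed the filter of a mean of at least 10, 0 passed limma at an adjusted p of 0.05, as did 0% of all 20057 genes tested (1.53% had an unadjusted p under 0.05, and none of the 8 did). The study did report genes at an adjusted p under 0.05 for this genotype comparison, from DESeq2 with sex as a covariate. The limma fit here had no sex term and called none of them, so 0 calls do not show equal levels. Mymx did not pass the filter, with values of 0.781, 5.15, 1.74 and 0.959 in wild type and 0, 3.11, 0 and 0 in Ceacam1-/-. Over the 9 genes, two-sided exact permutation p-values ran from 0.2 for Mymx to 1 for Pax7, where 4 against 4 libraries can reach 0.0286. Without library 23 the differences of Myod1 and Myog were 0.16 and 0.16 log2, so that their direction in normalized counts rested on that library.

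Myod1 separated the genotypes once the muscle content of each library was taken into account, as log2 of the gene minus the mean log2 of the 20 sarcomere genes. On this relative scale it was at -6.08, -6.08, -5.85 and -6.00 in wild type and at -6.43, -6.47, -6.68 and -6.29 in Ceacam1-/- without laser. All 4 Ceacam1-/- libraries lay below all 4 wild type ones. Of all 20057 genes tested, 0.0698% did so in this direction (in normalized counts 87 genes, Myod1 not among them). The sarcomere mean reached both below and above its wild type range in Ceacam1-/- libraries without laser. Subtracting it pushes genes that do not follow muscle content towards overlap. The share therefore does not show how rare the separation of Myod1 is. The difference was -0.46 log2 (SE 0.096, two-sided exact permutation p = 0.0286, unadjusted and the smallest that 4 against 4 can give), and -0.48 without library 23, still with no overlap (exact permutation p = 0.0571, the smallest that 3 against 4 can give). In limma it did not pass (SE 0.92, unadjusted p = 0.62), and 0% of all genes did. Limma draws the spread of each gene towards that of genes of like level. On this scale these include genes that do not follow muscle content, so the fit does not decide whether Myod1 differs. Mymx, at 0 in 3 of the Ceacam1-/- libraries, has no relative level there. The other 7 genes overlapped on this scale, from -0.60 for Myh8 to 0.27 for Pax7, with exact permutation p from 0.0857 to 1. The relative scale was applied to these libraries after their values were seen.

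The second question was what laser treatment did to these genes in wild type mice. Both fusion genes rose, and so did the fetal subunit of the muscle acetylcholine receptor, while Pax7, Myf5, Myf6 and the myosins did not pass the test. The laser libraries also entered the contrast by which the group was chosen. Mymx rose from between 0.781 and 5.15 without laser to between 68.8 and 864 with laser (median 203), and the 2 ranges did not overlap, as for 4.5% of all genes tested in this direction. The change was 6.41 log2 (SE 0.67, adjusted p = 2.42e-06, limma). Because Mymx was near 0 without laser, it passed the filter only through the laser libraries. With no filter on low values it was called as well (adjusted p = 3.96e-06, limma). Its fold change depends on the pseudocount and was 4.36 with a pseudocount of 10. Mymk rose from 59.6, 200, 38.7 and 119 without laser to between 147 and 2952 (median 907), with slight overlap between the groups. Its change was 3.23 log2 (SE 0.72, adjusted p = 0.00781, limma).

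Mymx apart, 1 of the other 6 genes tested here was called, Mymk, beside 5.28% of all 19950 genes (4.23% higher and 1.05% lower). The calls of Mymk and Mymx were also made under each of the 35 alternatives tried, with adjusted p from 0.000303 to 0.0446 for Mymk. With the sarcomere list as a covariate, the changes were 6.49 log2 for Mymx and 3.47 for Mymk. The list itself had lower estimates with laser in wild type (median -0.94 log2), so this covariate was not independent of the treatment. The part of muscle content in these changes was not tested.

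The other 5 genes tested did not pass. The change of Myf5 was 0.02 log2 (adjusted p = 0.987), that of Pax7 -0.14 (0.937), that of Myf6 -1.42 (0.242), that of Myh8 -0.99 (0.439) and that of Myh3 -1.55 (0.346). With library weights (limma's array weights), 3 more were called lower, Myf6 (-1.81), Myh3 (-1.87) and Myh8 (-1.37), beside 16.4% of all genes called lower under these weights.

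Myod1 and Myog, given without a test, parted from each other. Myod1 ranged from 147 to 1254 with laser (median 424) against 300 to 549 without, a difference of 0.07 log2 (SE 0.58), and its laser libraries lay on both sides of the others. Myog ranged from 589 to 7851 with laser (median 1800) against 183 to 510 without, a difference of 2.59 log2 (SE 0.69), and all 9 laser libraries were above all 4 without. The wild type laser libraries with the highest Myog, libraries 1, 12 and 2 at 7851, 5770 and 4219, were also the 3 with the highest Myod1 and the highest Mymx.

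The third question was whether the same happened in Ceacam1-/- mice. Mymx rose there too, and the myosins and Myf6 had lower values with laser without passing the test. Mymx went from 0, 3.11, 0 and 0 without laser to between 9.72 and 80.4 (median 40.4), again with no overlap, as for 1.17% of all genes tested in this direction. Its change was 4.49 log2 (SE 0.70, adjusted p = 0.00073, limma), and 1.99 with a pseudocount of 10. Here too it passed the filter only through the laser libraries, and with no filter its adjusted p was 0.00151 (limma). None of the other 6 genes tested was called, beside 3.72% of all 19950 genes (2.07% higher and 1.65% lower). Mymx was called under all 36 alternatives, and its change was 4.66 log2 with the sarcomere covariate. Mymk was at 20.4, 211, 82.6 and 74.4 without laser and between 60.3 and 355 (median 201) with laser, a change of 1.09 log2 that did not pass (adjusted p = 0.429, limma). With 1 library left out, the change of Mymk ran from 0.50 to 1.60 log2.

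Of the other genes in Ceacam1-/-, Myh3 went from 918, 34059, 18784 and 19948 without laser to between 343 and 4658 (median 891). Its estimated change was -3.02 log2 (adjusted p = 0.0728). The values were -2.51 for Pax7 (0.0855), -2.12 for Myf6 (0.0902), -1.89 for Myh8 (0.145) and -1.08 for Myf5 (0.352). These calls turned on library 23. Without it, all 5 were called lower, from -1.96 for Myf5 to -4.18 for Myh3, and the count of called genes, Mymx included, went from 1 to 6, as it also did with library weights. Of all genes, 6.8% were called lower without library 23 and 8.3% with library weights. Without libraries 14, 15 and 18, Myh3 was called lower (-3.32, adjusted p = 0.0444, limma) and the other 4 were not. The sarcomere list moved in the same way, with 1 of 20 genes lower with all libraries and 20 of 20 lower without library 23. With the sarcomere list as a covariate, none of the 5 passed, and the changes of Myf6 and Myf5 were 0.0034 and 0.13 log2.

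Myod1 was between 75.6 and 103 (median 91.8) in Ceacam1-/- with laser against 40.4, 451, 651 and 348 without, a difference of -1.50 log2 (SE 0.60). The value was -2.37 without library 23 and -0.31 with the sarcomere list as a covariate. Myog was between 146 and 517 (median 362) against 26.8, 446, 380 and 269, a difference of 0.50 log2 (SE 0.72), and its groups overlapped. Without library 23 this difference was -0.42. Whether laser acted differently on these genes in the 2 genotypes was not tested, since that difference contains the contrast by which the genes were chosen.

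**Figure D2:**
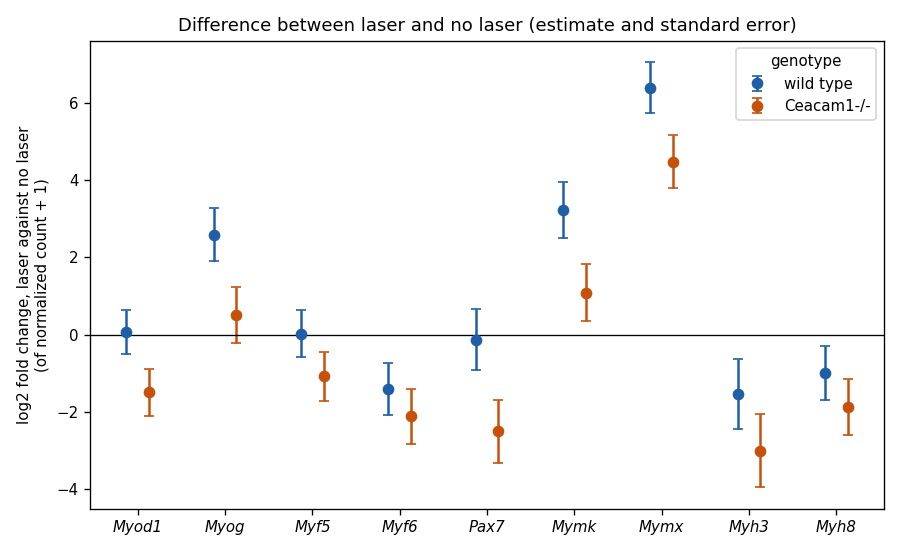
Difference between laser and no laser for each of the 9 genes, as log2 fold change of normalized count plus 1, in wild type (blue) and Ceacam1-/- (orange). Points are limma estimates and bars 1 standard error, from all 24 libraries. Mymx (6.41 and 4.49) and Mymk (3.23 and 1.09) lie above 0 in both genotypes, and Myf6, Myh3 and Myh8 below it.

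The ratio of Myog to Myod1 within a library does not depend on how much muscle the library held, provided both come from the same cells. Per kb, it was between 0.760 and 1.16 (median 0.971) in wild type and between 0.728 and 1.23 (median 0.896) in Ceacam1-/- without laser. With laser it was between 4.43 and 7.82 (median 5.30) in wild type and between 1.82 and 7.33 (median 4.95) in Ceacam1-/-. All 16 laser libraries lay above all 8 libraries without laser, and the genotypes overlapped within each treatment. Library 23, with the lowest Myod1 and Myog of all, had a ratio inside the range of the other libraries without laser. The ratio of Mymx to Mymk separated in the same way. It was at most 0.0404 without laser and at least 0.101 with laser. Without laser, Mymx was at 0 in most Ceacam1-/- libraries and at most 5.15 in any library. The separation of this ratio therefore restates the near absence of Mymx there. Both ratios were chosen after the values were seen and are given without a test.

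**Figure D3:**
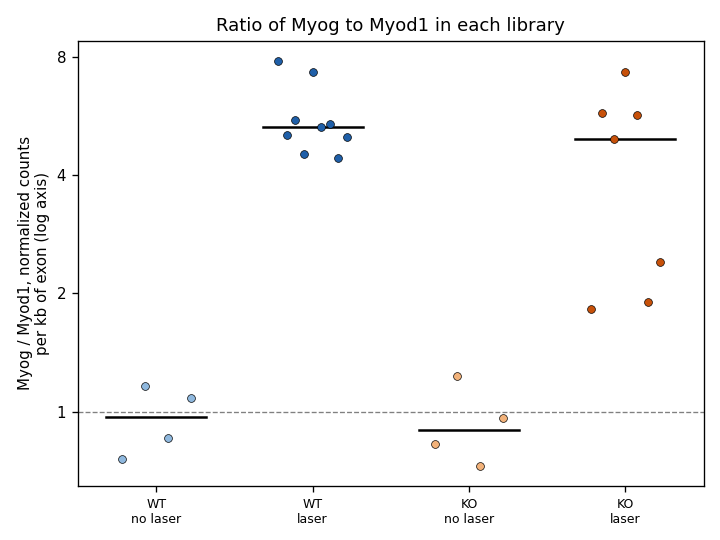
Ratio of Myog to Myod1 in normalized counts per kb of exon (log axis) in each library, by genotype (WT, wild type; KO, Ceacam1-/-) and laser. Points are libraries, bars are medians, and the dashed line is a ratio of 1. Libraries without laser lie between 0.728 and 1.23 and laser libraries between 1.82 and 7.82.

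The laser groups were set against the muscle content of each library on the same relative scale. On it Myog was higher with laser by 3.57 log2 (SE 0.42) in wild type and by 2.59 (SE 0.71) in Ceacam1-/-, without overlap in either genotype, as for 10.6% and 2.13% of all genes tested in this direction. Mymk was higher by 4.21 (SE 0.57) without overlap and by 3.18 (SE 0.91) with overlap. Mymx was higher by 7.38 (SE 0.52) in wild type without overlap. No value is given for Mymx in Ceacam1-/-, where 3 of the 4 libraries without laser were at 0. Myod1 was higher by 1.04 (SE 0.33) and 0.59 (SE 0.48) and Myf5 by 1.00 (SE 0.26) and 1.00 (SE 0.63), with overlap. The Ceacam1-/- values rested on the libraries low in sarcomere or RPE genes, being 0.15 for Myod1 and 0.66 for Myf5 without library 14 and 0.056 and 0.087 without libraries 14, 15 and 18, where that of Myog was 2.30 and that of Mymk 2.92. Myf6 (-0.45 and -0.04), Myh3 (-0.58 and -0.93) and Myh8 (-0.01 and 0.20) were near or below 0, and that of Myh3 in Ceacam1-/- was -1.78 without the same 3 libraries. Pax7 had 0.84 in wild type. It was at 0 in libraries 14 and 18, and no relative value is given for it in Ceacam1-/-. The scale is a relative one, and a member can be higher on it where the sarcomere genes are lower.

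Between genotypes with laser, the contrast by which the group was chosen, Myod1 was between 147 and 1254 in wild type and between 75.6 and 103 in Ceacam1-/-, and Myog between 589 and 7851 and between 146 and 517. These are the 2 of the 9 genes whose groups did not overlap, beside 0.0709% of all genes tested in this direction. The difference was -2.28 log2 (SE 0.41) for Myod1 and -2.85 (SE 0.53) for Myog. The other members had -2.88 (Mymx), -2.40 (Mymk), -2.36 (Pax7), -1.94 (Myf5), -1.91 (Myh3), -1.75 (Myh8) and -1.45 (Myf6). Myod1 varied little among the 7 Ceacam1-/- laser libraries (SD 10.2 around a mean of 89.9) and much among the 9 wild type ones (SD 417 around a mean of 570). The 2 lowest wild type laser libraries, 19 and 17, had 147 and 193 normalized counts of Myod1, above the highest of the other genotype.

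The medians of the muscle and other marker lists were off 0 in this contrast, and most of those of other cells depended on libraries 14, 15 and 18. The median difference of the 20 sarcomere genes was -1.34 log2, that of 7 adult myosins -1.36, that of 5 photoreceptor genes 2.01, that of 6 RPE genes -1.48 and that of 6 melanocyte genes -1.05, beside 0.01 for all genes tested. Without libraries 14, 15 and 18, these medians were -0.80, -1.40, 0.25, -0.53 and 0.55, and the difference was -2.27 for Myod1 and -2.60 for Myog. The sign of 6 lists turned without these libraries, from -1.05 to 0.55 for melanocyte, -0.43 to 0.87 for fibroblast, -0.46 to 0.73 for Schwann cell, -0.50 to 0.24 for myeloid, -0.73 to 0.08 for smooth muscle and -0.63 to 0.03 for endothelial markers. Relative to the sarcomere list, the difference was -0.92 (SE 0.58) for Myod1 and -1.49 (SE 0.79) for Myog, and both groups then overlapped. Without libraries 14, 15 and 18 these relative differences were -1.45 (SE 0.44) and -1.78 (SE 0.80), also with overlap. With all libraries, Myf6 was at -0.09, Mymk at -1.03 and Mymx at -1.52, also with overlap. With the sarcomere list as a covariate, the values were -1.91 for Myod1 and -2.76 for Myog, and -0.03 for Myf6.

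**Figure D4:**
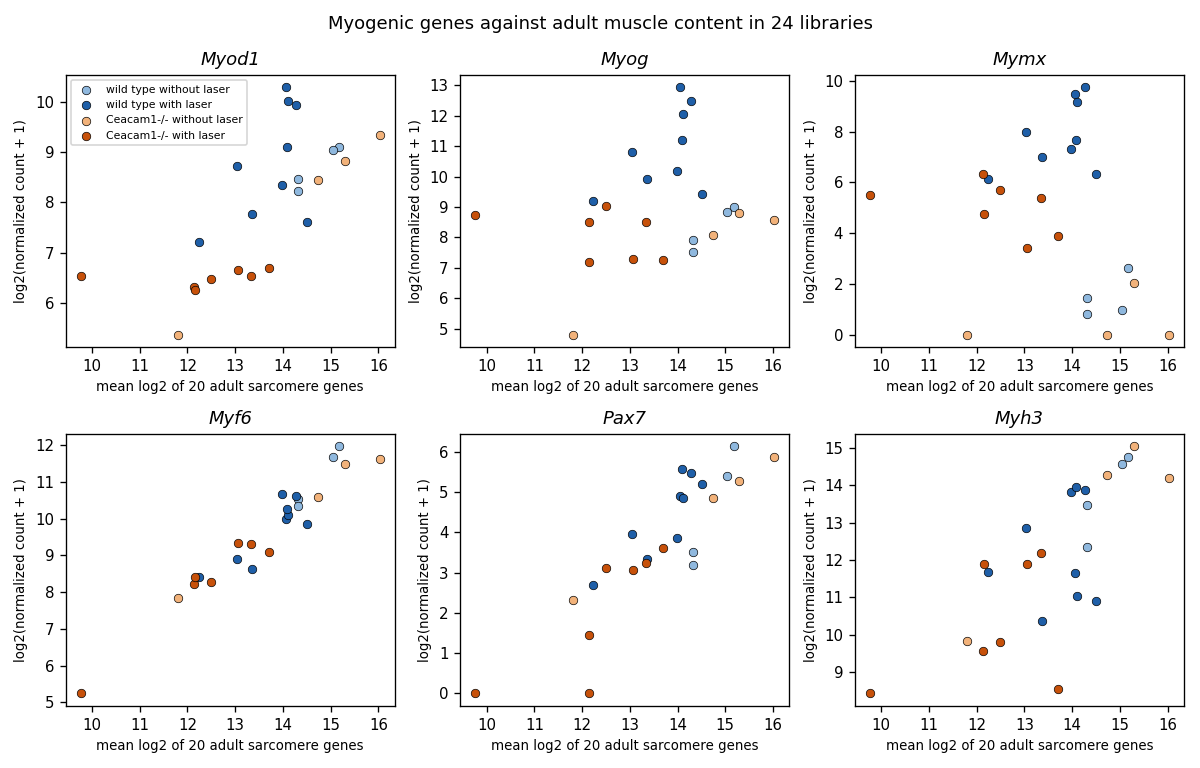
log2(normalized count + 1) of 6 genes (vertical) against the mean log2 of 20 adult sarcomere genes (horizontal) in each library, coloured by genotype and laser. Myod1 in Ceacam1-/- laser libraries stays between 75.6 and 103 normalized counts over a sarcomere mean of 9.76 to 13.7, and Mymx separates the laser libraries from the others.

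How far each gene followed adult muscle content was computed within each laser group and not across genotypes. The laser values of Myod1 and Myog chose the genes, so the relations of these 2 are given without a test. They were counted among the 18 relations of the adjustment. Pax7 and Myf6, the markers of the stem cell and of the mature fibre, followed muscle content in both laser groups. In wild type (n = 9), Pearson's r was 0.867 for Pax7 (exact permutation p = 0.00249, adjusted 0.0224 over 18 relations) and Spearman's rank correlation 0.8 (exact p = 0.0138, adjusted 0.124). For Myf6 r was 0.846 (exact p = 0.00522, adjusted 0.0277) and the rank correlation 0.55 (exact p = 0.133, adjusted 0.457). In Ceacam1-/- (n = 7), where Pax7 was at 0 in 2 libraries, r was 0.819 for Pax7 (exact p = 0.00198, adjusted 0.0224) with a rank correlation of 0.901 (exact p = 0.00952, adjusted 0.124). For Myf6 r was 0.969 (exact p = 0.00615, adjusted 0.0277) with a rank correlation of 0.821 (exact p = 0.0341, adjusted 0.205). Without the 2 libraries farthest from the median of the list, r was 0.811 and 0.785 for Pax7 and 0.675 and 0.931 for Myf6.

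Of the other 7 genes, Myod1 and Myog are given without a test, and the rest did not pass after adjustment. In wild type and Ceacam1-/- laser libraries, r was 0.523 and 0.313 for Myod1 and 0.474 and -0.438 for Myog. Among the genes tested, it was 0.259 and -0.462 for Mymk, 0.454 and -0.462 for Mymx and 0.707 and 0.0581 for Myf5. For Myh3 it was 0.160 and 0.410, and for Myh8 0.348 and 0.239. The adjusted exact permutation p of the genes tested ran from 0.119 (Myf5, n = 9) to 0.897 (Myf5, n = 7). Without the 2 libraries farthest from the median of the list, r for Myod1 went to 0.227 in wild type and to 0.861 in Ceacam1-/-. A difference between genotypes in this relation was not tested. For the other 6 genes, r without those libraries was between -0.0429 and 0.424 in wild type and between -0.436 and 0.600 in Ceacam1-/-. Groups of this size leave wide room for relations that could not be detected. No rank correlation of the genes tested passed after adjustment.

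The genes whose pattern was most like that of Myod1, after the group means were taken out, were Cdh15 (r = 0.948), the M-cadherin of satellite cells and myoblasts, Apool (0.945), Myog (0.910), the sarcomeric ubiquitin ligase Trim55 (0.908) and Prkag3 (0.879), a subunit of AMP-activated kinase in fast muscle. For Myog they were Cdh15 (0.922), Myod1 (0.910), Tnnt2 (0.910), the cardiac and embryonic troponin T, Mymk (0.907) and Mybph (0.906), a myosin binding protein. These values describe 24 libraries and 15737 protein-coding genes that share library, depth and muscle content. Within the group, Mymx (0.779), Myf5 (0.652) and Myh8 (0.649) followed Myog less closely, and Myf6 (0.448) and Myh3 (0.420) least.

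Related genes were counted in 5 lists. No gene of any list passed without laser, as none of all genes did there. Among 14 satellite cell and myoblast genes tested, 2 rose with laser in wild type, beside 4.23% of all genes called higher, Vcam1 (1.57 log2, adjusted p = 0.0251, limma), an adhesion molecule that activated endothelium also makes, and Megf10 (1.14, adjusted p = 0.0415), a receptor of satellite cells and astrocytes. The median of the list was 0.42 beside -0.10 for all genes tested. The others did not pass, Cdh15 included (1.097, adjusted p = 0.279). Neither call was firm: the count was 0 without library 21, 22 or 27 and 1 without library 1, 2, 3, 11, 12, 13, 16 or 26. In Ceacam1-/- none of the 14 passed (median -0.77 beside 0.02), with Itga7, a laminin receptor of muscle, at -1.19 (0.104) and Des, the muscle intermediate filament, at -1.63 (0.141). Without library 23 the count was 3, of which 1 was higher, beside 6.8% of all genes called lower.

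Of 21 partners, inhibitors and upstream regulators of the myogenic factors, none passed in wild type (median -0.08). The lowest p-values were those of Pitx1 (-3.05, adjusted p = 0.0805), a homeobox factor, and Tcf12 (0.33, 0.116), an E-protein partner of the myogenic factors. In Ceacam1-/- Eya1, a co-activator and phosphatase of muscle and ear development, fell by 1.46 log2 (adjusted p = 0.0402, limma, median of the list -0.55). Of all genes, 1.65% were called lower there. The count of the list was 0 without library 3, 11, 14, 18, 24, 25 or 28, 2 without library 19 and 5 without library 23. Without library 23, 6.8% of all genes were called lower.

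Of 20 embryonic and denervation-linked muscle genes, 2 rose with laser in wild type (median 0.32), beside the same 4.23% of all genes. Chrng, the gamma subunit that makes the acetylcholine receptor fetal, went from 14.1, 24.6, 0.763 and 4.98 without laser to between 38.4 and 1481 (median 377), which was 5.62 log2 (SE 0.95, adjusted p = 0.000704, limma) and without overlap. Per kb it was between 0.0344 and 0.737 times Chrne, the adult subunit, without laser and between 7.07 and 65.5 times Chrne with laser. Runx1, which denervated muscle and many blood cells express, rose by 1.92 log2 (adjusted p = 0.00321). In Ceacam1-/- Chrng was at 0, 19.7, 21.4 and 8.30 without laser and between 7.70 and 124 (median 54.7) with laser, and its 2.54 log2 did not pass (adjusted p = 0.147). There Fbxo32, a ubiquitin ligase of muscle atrophy, fell by 1.56 log2 (adjusted p = 0.00517, limma, median of the list -0.11), beside 1.65% of all genes called lower. Without library 23 the list had 5 calls, 4 of them lower, beside 6.8% of all genes called lower.

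Adult fibre genes had lower estimates with laser in both genotypes, mostly short of the test. None of 7 adult myosin heavy chains passed in wild type (median -1.96) or Ceacam1-/- (median -2.43). Those of extraocular muscle, Myh13 (-3.53, adjusted p = 0.186) and Myh15 (-3.22, 0.213), had lower estimates in wild type than the fast myosins Myh1 (-0.18, 0.897), Myh2 (-1.42, 0.236) and Myh4 (-0.84, 0.48). The slow myosin Myh7 was at -3.30 (0.253). In wild type laser libraries 1, 2 and 3, Myh15 was at 24.3, 20.5 and 269. In the other wild type laser libraries it was between 1397 and 8515, against 3014 to 13822 without laser. Myh13 was at 47.8, 1301, 3.39 and 2042 in wild type without laser and at 7.18, 127, 161 and 230 in Ceacam1-/-, so that libraries of 1 group differed by over 100 times. In Ceacam1-/- the lowest p-values were those of Myh2 (-2.43, 0.0512) and Myh4 (-2.06, 0.0869). Of the 20 sarcomere genes none passed in wild type (median -0.94), where Acta1 had -0.58 (0.646) and Ckm -1.20 (0.351). In Ceacam1-/- Ryr1, the calcium release channel, fell by 2.09 log2 (adjusted p = 0.0342, limma, median of the list -2.09), and Acta1 had -1.72 (0.163) and Ckm -2.39 (0.0689). Of all genes, 1.65% were called lower there. The sarcomere count was 0 without library 5, 14, 24, 25 or 28, 3 without library 19, 8 without library 4 and 20 without library 23. Without library 23, 5 adult myosins were called lower, beside 6.8% of all genes. Without libraries 14, 15 and 18, the counts in Ceacam1-/- were 1 of 14 satellite cell and myoblast genes (higher), 4 of 21 partners and regulators (3 higher), 3 of 20 embryonic and denervation-linked genes (2 higher), 1 of 7 adult myosins (lower) and 0 of 20 sarcomere genes, beside 7.6% of all genes called higher and 2.57% lower.

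**Figure D5:**
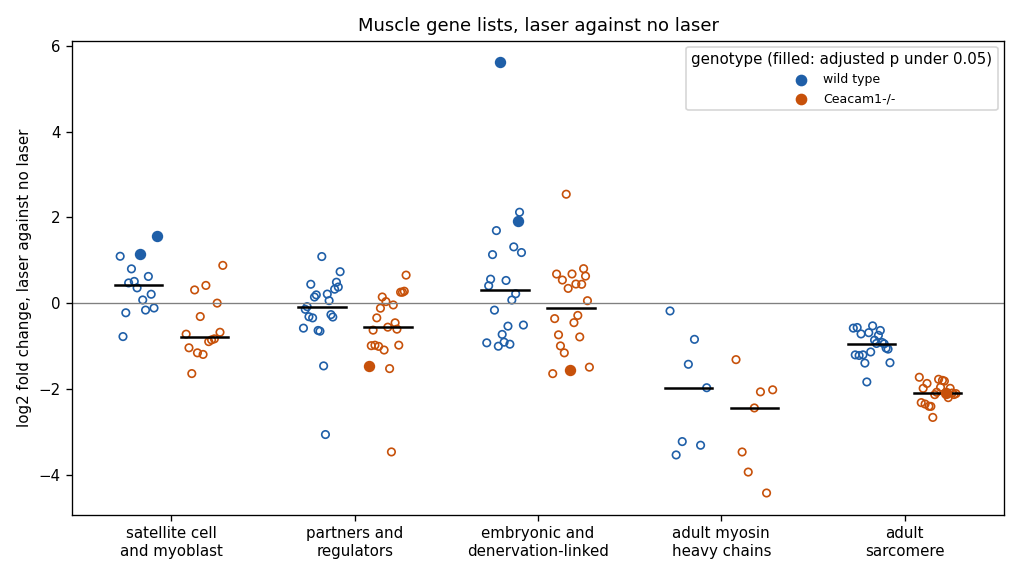
log2 fold change with laser of the genes in 5 muscle lists, in wild type (blue) and Ceacam1-/- (orange). Points are genes, filled where the adjusted p was under 0.05, and bars are list medians. Chrng stands at 5.62 in wild type, and the medians of the sarcomere list are -0.94 and -2.09.

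Markers of other cells in the tissue moved with laser as well. Of 6 myeloid markers, 5 rose in wild type, led by Cd68 (2.77 log2, adjusted p = 0.000141, limma), and 3 in Ceacam1-/- (Cd68 2.05, adjusted p = 0.00908), beside 4.23% and 2.07% of all genes called higher. Of 6 fibroblast markers, 2 rose in wild type, Col3a1 (2.50, 0.00957) and Lum (1.90, 0.0309), and 1 in Ceacam1-/- (Lum 2.11, 0.031). None of 6 RPE, 6 endothelial, 6 melanocyte, 6 smooth muscle, 5 photoreceptor or 6 Schwann cell markers passed in either genotype. Their medians in wild type and Ceacam1-/- were -0.07 and -1.61, 0.50 and -0.21, 0.55 and -0.43, 0.08 and -0.58, -1.44 and 2.34, and -0.12 and -1.41. The Ceacam1-/- values rested on libraries 14, 15 and 18. Without them the medians in that genotype were -0.59 for RPE, 0.47 for endothelial, 1.07 for melanocyte, 0.15 for smooth muscle, 0.63 for photoreceptor and -0.36 for Schwann cell markers, and 1 melanocyte, 6 fibroblast and 5 myeloid markers were called higher, beside 7.6% of all genes. The part of these cells in the results on the 9 genes was not tested.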

How the data were processed

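Total RNA of choroidal tissue was made into SMART-Seq libraries. The authors quantified reads with Salmon 1.10.3 on GRCm39 and imported and normalized them with tximport and DESeq2 1.44.0. What was deposited is a signal table of such normalized counts (56065 genes, 24 libraries). Raw reads could not be recovered, because only 36.5% to 78.0% of low values lay within 5% of a whole step, so no count model was run and the depth behind a value is not known exactly. Groups came from the labels. Sex, a covariate in the study, is not in them.

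Values were tested as log2(value + 1) with limma 3.58.1 (trend, R 4.3.3), for genes whose mean in the libraries fitted reached 10, with Benjamini-Hochberg adjustment over all genes and a threshold of 0.05. Genotype was tested in the 8 libraries without laser, and laser in each genotype in 1 fit of all 24. The fits were tested on simulated data. Single genes without laser were compared by two-sided exact permutation, and relations to the sarcomere list likewise. Positions, exon lengths and promoters came from GRCm39 with the GENCODE annotation, which matched 99.1% of identifiers.

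The 9 genes and all lists were chosen with earlier results of these data known. Named were the 9 genes, Ceacam1, adult myosins, Acta1 and Ckm, and in each tested comparison the genes of lowest p of each muscle list (up to 4 per direction if past the threshold, otherwise 2), and for Myod1 and Myog the 5 most similar genes. Without laser and for markers of other cells, a count or the leading genes stand for the list. The ratios, the relative scale without laser, removal of 3 libraries low in RPE markers and other genes named were chosen after the values were seen. The promoter of Mymx and 1 marker gene are not reported here. Alternatives covered the pseudocount, filter, scaling, trend, library weights, covariates, the libraries in the fit and each library left out.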

Additional observations from a re-analysis of the deposited data

Results flagged for a closer look

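Each gene was checked in each of the 4 groups for a library far from the others (Dixon's criterion), and 4 of 36 checks met it, 1 of them by construction. Chance gives about 1 in 20. Myf6 was at 36.8 in library 14 (Ceacam1-/- with laser), the library with the lowest sarcomere counts. Myh3 was at 918 and Myh8 at 70.2 in library 23 (Ceacam1-/- without laser), far below the other libraries of that group. Mymx was at 3.11 in library 24 of the same group, where the other 3 libraries were at 0, so that any value above 0 would have met it.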

How the results depend on the processing

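No paired analysis was possible because the library numbers in the labels are not shared between groups. The count of called genes among the 9 was 0 without laser under all 19 alternatives. With laser in wild type it was 2 of 7, Mymx included, with 2 under every library left out and 5 with library weights. With laser in Ceacam1-/- it was 1 of 7, and 6 with library weights, 2 without the 3 libraries low in RPE markers and between 1 and 6 with 1 library left out (6 without library 23). The cause of the change with library weights was not tested. The genotype difference with laser was -2.28 for Myod1 and -2.85 for Myog, and relative to the sarcomere list -0.92 and -1.49. With 1 library left out these ranged from -2.48 to -2.09 and from -3.06 to -2.60.

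Some directions reversed. Without laser, Pax7 was at -0.093 with quantile normalization and -0.083 with library weights, and Myh3 at 0.077 and Mymk at 0.25 with library weights. With 1 library left out, the ranges without laser were -1.17 to 0.16 for Myod1, -1.17 to 0.16 for Myog, -1.33 to 0.041 for Myf5, -1.16 to 0.11 for Myf6, -0.43 to 0.77 for Pax7, -1.01 to 0.72 for Myh3, -1.34 to 0.16 for Myh8 and -0.76 to 0.34 for Mymk. With laser in wild type, Myf5 was at -0.35 and Myod1 at -0.31 with library weights, and Pax7 at 0.86 with the sarcomere covariate, and the ranges were -0.25 to 0.23, -0.12 to 0.26 and -0.59 to 0.39. With laser in Ceacam1-/-, Myf5 was at 0.13 and Myf6 at 0.0034 with the sarcomere covariate, and Myog ran from -0.42 to 0.92 with 1 library left out.

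Over all genes, laser called 1053 genes in wild type and 742 in Ceacam1-/-. The counts were 6505 and 3551 with library weights, 2005 in Ceacam1-/- without the 3 libraries low in RPE markers, 3598 and 417 with the sarcomere covariate, and 2274 and 38 with only the libraries of the genotype in the fit. They were 787 and 437 without a filter. With 1 library left out they ran from 479 (without library 21) to 1257 and from 148 (without library 25) to 2488 (without library 23). Without laser, 0 genes were called, and 1 with no trend, with library weights or without library 24. Across the alternatives, laser in wild type called up to 5 satellite cell and myoblast genes, 9 partners and regulators and 8 embryonic and denervation-linked genes. It called up to 5 adult myosins and 14 sarcomere genes, beside up to 6505 of all genes. Low values such as those of Mymx and Pax7 rest on few reads, whose number is not known.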
